A study of Bos taurus with 10 samples.

Results

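The genes of mitosis and of the G2/M transition were examined in bovine (Bos taurus) oviductal organoids cultured at 37 °C or exposed to 42 °C. The set was taken by gene symbol from a list of 49 genes: the cyclins and CDK1, the mitotic kinases, the spindle checkpoint, the chromosomal passenger complex, the kinetochore, the mitotic kinesins, cytokinesis, condensin and the transcription factor FOXM1. The table of 26804 genes held a row for 48 of them, and MAD2L1, for which no row carried that symbol, was not analysed here. All 48 were at 1 TPM or more (transcripts corrected for length and given as a share of the library) in each of the 9 libraries compared, so that the filter on low values removed none of them.

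Such organoids grow in a gel from epithelial cells of the oviduct, the tube in which fertilization and early embryo development take place. Each replicate was a pool of cells from 2 animals, and the same oviducts were split between the thermoneutral culture (37 °C) and the heat stress (HS) culture (42 °C), the latter for the final day after growth at 37 °C. Both cultures began from diestrus tracts and shared a medium with EGF, FGF10, Noggin, nicotinamide, N-acetyl-L-cysteine, the TGF-beta receptor inhibitor A83-01, the p38 inhibitor SB202190 and the ROCK inhibitor Y27632, so that growth factors and kinase inhibitors were present in every library. No other difference in treatment was stated, and the age of the animals was not given in the sources used here. There were 5 libraries per temperature, named A to E, and they are called here 37C A to 37C E and 42C A to 42C E. The comparison used all libraries but 42C B. An HS replicate was set aside in the study, and this was taken to be 42C B, the library missing from its clustering plot. The values of 42C B are given in parentheses beside the others but enter no mean and no test unless stated.

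Cells enter mitosis when CDK1, bound to cyclin B, is switched on by the CDC25 phosphatases. The chromosomes are then compacted by condensin, attached to spindle microtubules through the kinetochores, and held together until the spindle checkpoint releases CDC20, which directs the anaphase-promoting complex (APC/C) to destroy securin and cyclin B. Most of these genes are transcribed mainly in G2 and mitosis, through FOXM1, MYBL2 and the MuvB complex, so that their RNA is widely used as a sign of dividing cells. In a bulk sample, fewer dividing cells and less RNA of these genes per cell cannot be told apart.

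At 42 °C the APC/C activator CDC20, its substrate PTTG1, CDCA3, the checkpoint protein BUB1B, the kinases PLK1 and AURKB, and MKI67 fell, each by a log2 difference of more than 1. None of the 48 genes rose by that much, and MKI67 lost its call in most fits that left out 1 library. The genes did not move as a block, because SPC25, NUSAP1, SMC2, TOP2A, CDC25C and CDC25B rose by smaller amounts. With libraries scaled by median ratios, only the rises of SPC25 and NUSAP1 still passed. With 42C B included at equal weight, only that of NUSAP1 passed. With 42C B included and array weights, which let libraries count unequally, all of these rises but that of TOP2A passed. Differences are 42 °C minus 37 °C on the log2(TPM + 1) scale, and calls required an adjusted p below 0.05 (limma, Benjamini-Hochberg over the 12149 genes tested) together with a difference of at least 1 in either direction. Below, "fell" and "rose" are used for an adjusted p below 0.05 at any size. Genes not printed with a value in every library, and CCNA2 and NCAPH, were chosen for mention after their values had been seen.

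Of the 48 genes, 7 were called lower, against a background of 7.14% of all genes tested, and 0 were called higher, against 15.8%. At any size 14 fell (background 18.1%), 6 rose (background 45.1%) and 28 did neither. These shares of all genes are also the background for the counts in the gene groups below. All 4 HS libraries lay below all 5 thermoneutral libraries for 8 genes (background 12.3%) and above them for 3 genes (background 36.6%). The median difference of the 48 genes was -0.12, from -1.64 for CDCA3 to 0.98 for SPC25, and 39 of the 48 lay below the median of all genes tested, which was 0.30. Each TPM value is a share of its library, and the median of all genes moved to -0.01 when libraries were scaled by median ratios. With that scaling 14 of the 48 genes were called lower (11.8% of all genes) and 0 higher (7.55% of all genes), 21 fell and 2 rose at any size (29.9% and 28.7% of all genes), and the median of the 48 was -0.45. With all 10 libraries 14 fell and 1 rose at any size (16.6% and 32% of all genes). With array weights on those libraries 22 fell and 5 rose (23% and 49.7% of all genes).

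**Figure D1:**
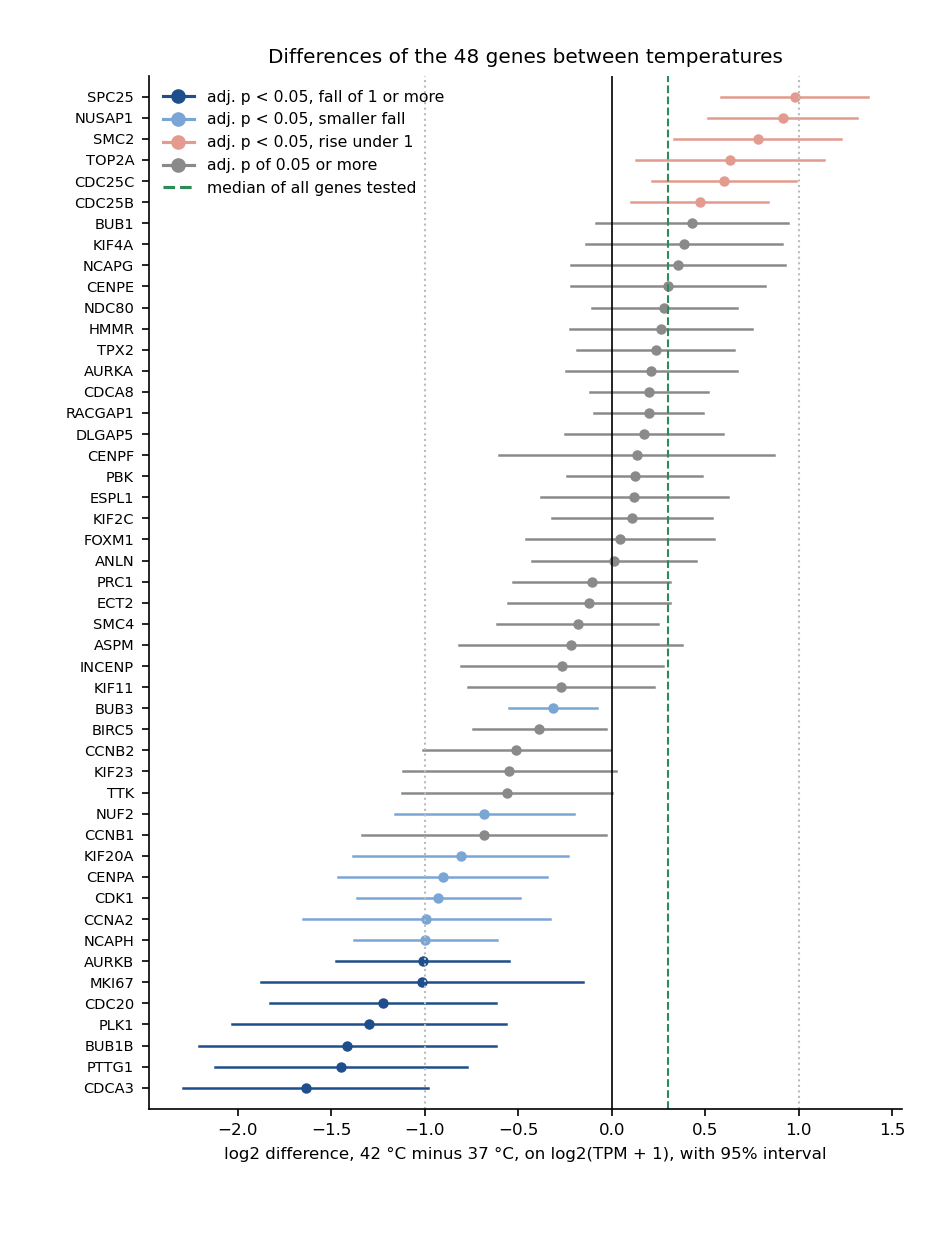
Log2 difference (42 °C minus 37 °C, on log2(TPM + 1)) of each of the 48 genes with its 95% interval from limma, ordered by size. Points are coloured by adjusted p and size, dotted lines mark differences of 1 in either direction and the dashed line the median of all genes tested (0.30). The 7 called genes lie at the lower end, from AURKB (-1.01) to CDCA3 (-1.64), and the highest gene, SPC25 (0.98), stays below 1.

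At 37 °C the 5 libraries held these genes at nearly the same level. The highest of the 5 was a median of 1.29 times the lowest, with a range of 1.14 to 1.70 over the 48 genes. BIRC5 (survivin, an inhibitor of apoptosis family protein of the chromosomal passenger complex) had the highest mean level at 90.3 TPM ± 7.95 (SD, n = 5), followed by BUB3 at 80.4 ± 6.77, CCNB1 at 73.2 ± 6.29 and CCNA2 at 55.1 ± 4.56. BUB3 and CCNB1, neighbours in that order, overlapped over the 5 libraries, and so did BIRC5 and BUB3. The lowest were CENPE, a kinetochore motor, at 4.30 TPM ± 0.66, CDC25C at 6.40 ± 0.62 and FOXM1 at 6.96 ± 0.68. A mean of 10 TPM or more was found for 42 of the 48. The sum over the 48 genes was between 1251 and 1382 TPM in the thermoneutral libraries.

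Among the cyclins, CDK1 and its phosphatases, 2 of 6 fell, 2 rose and none was called. CDK1, the kinase that starts mitosis, was at 25.8, 22.7, 25.4, 28.7 and 24.4 TPM in 37C A to E, and at 17.8, 8.67, 10.1 and 17.2 TPM in 42C A, C, D and E (3.20 in 42C B). Every HS library was below every thermoneutral one, and CDK1 fell by 0.93 ± 0.20 (SE; adjusted p = 0.00187). CCNA2 (cyclin A2), just under the size for a call, was at 47.7 to 58.9 TPM at 37 °C and at 49.9, 11.97, 26.8 and 33.1 TPM in 42C A, C, D and E (5.14 in 42C B). It fell by 0.99 (SE 0.30; adjusted p = 0.0133), while 42C A lay within the thermoneutral range.

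CCNB1 (cyclin B1), the partner of CDK1, was at 84.0, 68.3, 73.3, 71.0 and 69.6 TPM in 37C A to E and at 71.98, 19.95, 42.8 and 66.5 TPM in 42C A, C, D and E (6.002 in 42C B). Its levels in 42C A and E were thus close to those at 37 °C and its level in 42C C was far below, and the difference of -0.68 ± 0.30 (SE) did not pass the test (adjusted p = 0.0638, limma). CCNB2 (cyclin B2) had a difference of -0.51 (adjusted p = 0.0698, limma). CDC25C, a phosphatase that activates CDK1, went the other way: 5.92, 7.09, 6.13, 5.81 and 7.03 TPM in 37C A to E against 8.06, 8.02, 13.4 and 12.3 TPM in 42C A, C, D and E (1.43 in 42C B). All 4 HS libraries were above all 5 thermoneutral ones, and it rose by 0.60 ± 0.18 (SE; adjusted p = 0.0108).

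CDC25B, the phosphatase held to act first on CDK1, was at 26.4, 23.9, 21.3, 36.3 and 24.3 TPM in 37C A to E and at 36.6, 29.0, 36.8 and 45.1 TPM in 42C A, C, D and E (32.6 in 42C B). It rose by 0.47 ± 0.17 (SE; adjusted p = 0.0280), with 37C D overlapping the HS libraries. The rises of CDC25B and CDC25C did not hold when libraries were scaled by median ratios, where their differences were 0.14 (adjusted p = 0.463) and 0.29 (adjusted p = 0.150, limma). CDC25C overlaps FAM53C in the RefSeq annotation, which went from a mean of 22.1 TPM at 37 °C to 43.9 TPM at 42 °C (log2 difference 0.95).

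Of the 6 mitotic kinases, PLK1 and AURKB were called lower and the other 4 did not pass the test. PLK1, which acts from mitotic entry through to cytokinesis, was at 48.9, 42.7, 51.4, 45.4 and 38.7 TPM in 37C A to E and at 30.8, 7.06, 15.4 and 28.6 TPM in 42C A, C, D and E (4.998 in 42C B). The groups did not overlap, and PLK1 fell by 1.30 ± 0.33 (SE; adjusted p = 0.00535). AURKB, the catalytic subunit of the chromosomal passenger complex, was at 28.5, 26.4, 25.4, 24.3 and 25.4 TPM in 37C A to E and at 19.9, 8.37, 9.43 and 14.7 TPM in 42C A, C, D and E (2.32 in 42C B). It fell by 1.01 ± 0.21 (SE; adjusted p = 0.00150), again with no overlap.

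AURKA, the Aurora kinase of the centrosome, behaved differently from AURKB. Its levels of 29.2, 24.4, 32.4, 25.03 and 21.4 TPM in 37C A to E stood against 34.4, 19.7, 28.3 and 44.8 TPM in 42C A, C, D and E (27.97 in 42C B). The HS libraries lay on either side of the thermoneutral ones, with a difference of 0.21 ± 0.21 (SE; adjusted p = 0.394, 95% interval -0.25 to 0.67), and the sign was negative (-0.12) under median-ratio scaling. TTK, BUB1 and PBK had differences of -0.56, 0.43 and 0.12, with adjusted p (limma) of 0.0761, 0.127 and 0.533.

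The spindle checkpoint, APC/C and separase genes had the lowest median of any group, at -1.32 over 6 genes. Of these, 4 were called lower (background 7.14%). The groups were drawn by hand, and this median depends on which genes were placed here. BUB1 and TTK, which also act in the checkpoint (differences 0.43 and -0.56), were counted with the mitotic kinases, and CDCA3 was counted here. CDCA3, an adaptor that helps the degradation of the CDK1 inhibitory kinase WEE1, had the largest fall of the 48. It was at 48.6, 38.5, 46.3, 34.7 and 38.6 TPM in 37C A to E and at 23.8, 6.96, 8.02 and 17.7 TPM in 42C A, C, D and E (8.35 in 42C B), and fell by 1.64 ± 0.30 (SE; adjusted p = 0.000667). All HS libraries were below all thermoneutral ones. In the RefSeq annotation CDCA3 overlaps USP5, which went from a mean of 43.6 TPM at 37 °C to 14.1 TPM at 42 °C (log2 difference -1.62). By position 10 of the 48 overlap another gene, and how much transcribed sequence they share was not examined. Whether the counting used strand was not stated in the sources used here, so reads in any shared sequence cannot be told apart.

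PTTG1 (securin), which keeps separase inactive until anaphase, was at 60.0, 52.5, 47.3, 41.5 and 46.4 TPM in 37C A to E and at 37.9, 8.73, 15.4 and 17.4 TPM in 42C A, C, D and E (1.49 in 42C B). It fell by 1.45 ± 0.31 (SE; adjusted p = 0.00168), with no overlap. CDC20, the mitotic activator of the APC/C, was at 49.1, 44.8, 52.2, 47.8 and 46.0 TPM in 37C A to E and at 34.2, 10.5, 15.1 and 28.6 TPM in 42C A, C, D and E (9.18 in 42C B). It also fell with no overlap, by 1.22 ± 0.28 (SE; adjusted p = 0.00245).

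BUB1B (BUBR1), which holds CDC20 inactive at the checkpoint, was at 17.5, 17.6, 19.6, 19.4 and 21.3 TPM in 37C A to E and at 17.8, 2.76, 4.39 and 7.30 TPM in 42C A, C, D and E (0.513 in 42C B). It fell by 1.42 ± 0.36 (SE; adjusted p = 0.00523). Here 42C A lay within the thermoneutral range, while 42C C, D and E were all far below it. BUB3, the checkpoint protein that brings BUB1 and BUB1B to the kinetochore, fell only by 0.32 ± 0.11 (SE; adjusted p = 0.0237), from 84.7, 71.3, 89.0, 79.1 and 77.9 TPM in 37C A to E to 57.04, 60.4, 67.1 and 73.7 TPM in 42C A, C, D and E (48.55 in 42C B). ESPL1 (separase) had a difference of 0.12 ± 0.23 (SE; adjusted p = 0.657, limma).

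The other subunits of the chromosomal passenger complex, which corrects faulty chromosome attachments together with AURKB, did not pass the test. BIRC5 was at 94.97, 92.4, 96.7, 90.8 and 76.7 TPM in 37C A to E and at 70.6, 48.4, 68.6 and 94.1 TPM in 42C A, C, D and E (31.9 in 42C B) (difference -0.39 ± 0.16, SE; adjusted p = 0.0553, limma). Its level in 42C E was thus within the thermoneutral range. The scaffold INCENP and the subunit CDCA8 (borealin) had differences of -0.27 and 0.20, with adjusted p (limma) of 0.363 and 0.241.

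The kinetochore genes were split, with 2 of 6 falling, 1 rising and a median of 0.21. SPC25, a subunit of the NDC80 complex that binds microtubules, was at 10.2, 8.49, 9.26, 9.95 and 12.2 TPM in 37C A to E and at 15.1, 18.2, 23.2 and 28.0 TPM in 42C A, C, D and E (6.26 in 42C B). All HS libraries were above all thermoneutral ones, and it rose by 0.98 ± 0.18 (SE; adjusted p = 0.000662), just under the size for a call. It also rose by 0.66 under median-ratio scaling (adjusted p = 0.00532, limma). CENPA, the histone variant that marks the centromere, and NUF2, another subunit of the NDC80 complex, fell by 0.90 (adjusted p = 0.00906) and 0.68 (adjusted p = 0.0178). NDC80 itself had a difference of 0.28 (adjusted p = 0.186, limma), and CENPE and CENPF had differences of 0.30 and 0.13.

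Of the 11 kinesins and spindle proteins, 1 fell, 1 rose and 9 did neither, with a median of 0.11. NUSAP1, which binds and stabilizes spindle microtubules, was at 16.3, 19.5, 16.3, 19.5 and 15.3 TPM in 37C A to E and at 30.1, 23.8, 35.9 and 48.6 TPM in 42C A, C, D and E (86.0 in 42C B). It rose by 0.92 ± 0.18 (SE; adjusted p = 0.00116) with no overlap, and by 0.58 under median-ratio scaling (adjusted p = 0.0131, limma). In RefSeq NUSAP1 overlaps CHP1, which went from a mean of 194 TPM to 441 TPM (log2 difference 1.16). It also overlaps OIP5 and NDUFAF1 (log2 differences -0.23 and 0.07). For lack of a stated strand, reads in any sequence that NUSAP1 shares with these genes cannot be told apart. TPX2, which activates AURKA on the spindle, was at 37.9, 35.4, 38.2, 41.7 and 39.3 TPM in 37C A to E and at 47.5, 30.01, 42.4 and 70.1 TPM in 42C A, C, D and E (20.03 in 42C B). Its difference of 0.24 ± 0.19 (SE) did not pass the test (adjusted p = 0.303).

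KIF20A, a kinesin of the central spindle that brings PLK1 and AURKB to the site of division, was the spindle gene that fell, by 0.81 ± 0.26 (SE; adjusted p = 0.0186, limma). It overlaps CDC23, a subunit of the APC/C called lower at -1.07. The remaining 8 genes of this group (KIF11, KIF23, KIF2C, KIF4A, PRC1, HMMR, DLGAP5 and ASPM) had differences between -0.55 and 0.39. The cytokinesis genes ECT2, ANLN and RACGAP1 had differences of -0.12, 0.01 and 0.20, and none of them passed the test.

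Of the 6 chromosome structure genes, 2 fell and 2 rose. MKI67 (Ki-67), which coats mitotic chromosomes and is the usual marker of proliferation, was at 19.2, 17.5, 16.1, 19.4 and 13.5 TPM in 37C A to E and at 23.0, 3.28, 5.13 and 8.92 TPM in 42C A, C, D and E (2.10 in 42C B). It fell by 1.02 ± 0.39 (SE; adjusted p = 0.0404), but its level in 42C A was above every thermoneutral library, and it lost its call when any of 37C A, B, C or D or 42C C, D or E was left out. TOP2A (topoisomerase II alpha), which untangles sister chromatids, was at 32.1, 31.8, 29.5, 39.6 and 30.7 TPM in 37C A to E and at 62.0, 30.1, 45.6 and 79.6 TPM in 42C A, C, D and E (8.24 in 42C B). It rose by 0.63 ± 0.23 (SE; adjusted p = 0.0310), although 42C C lay within the thermoneutral range, and its difference under median-ratio scaling was 0.30 (adjusted p = 0.274, limma).

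SMC2, an ATPase subunit of condensin, rose by 0.78 ± 0.20 (SE; adjusted p = 0.00583). It was at 13.5, 14.9, 16.0, 19.3 and 20.6 TPM in 37C A to E and at 28.2, 20.1, 29.7 and 43.9 TPM in 42C A, C, D and E (11.6 in 42C B), so that 42C C overlapped 37C E. Its difference was 0.45 under median-ratio scaling (adjusted p = 0.0562, limma). The condensin I subunit NCAPH, the gene nearest to the size for a call, was at 13.4 to 16.5 TPM at 37 °C and at 10.7, 5.27, 6.84 and 6.78 TPM in 42C A, C, D and E (2.70 in 42C B). It fell by 0.999 (SE 0.175; adjusted p = 0.000497), with no overlap, and was called lower (-1.04) when the letters were fitted as a block of paired replicates.

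FOXM1, the transcription factor that drives much of this program, did not differ detectably. It was at 6.62, 7.22, 7.20, 7.78 and 5.97 TPM in 37C A to E and at 10.5, 4.27, 5.69 and 10.02 TPM in 42C A, C, D and E (4.56 in 42C B). The difference was 0.04 ± 0.23 (SE; adjusted p = 0.877), with a 95% interval of -0.46 to 0.55, and its sign was negative (-0.26) under median-ratio scaling.

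**Figure D2:**
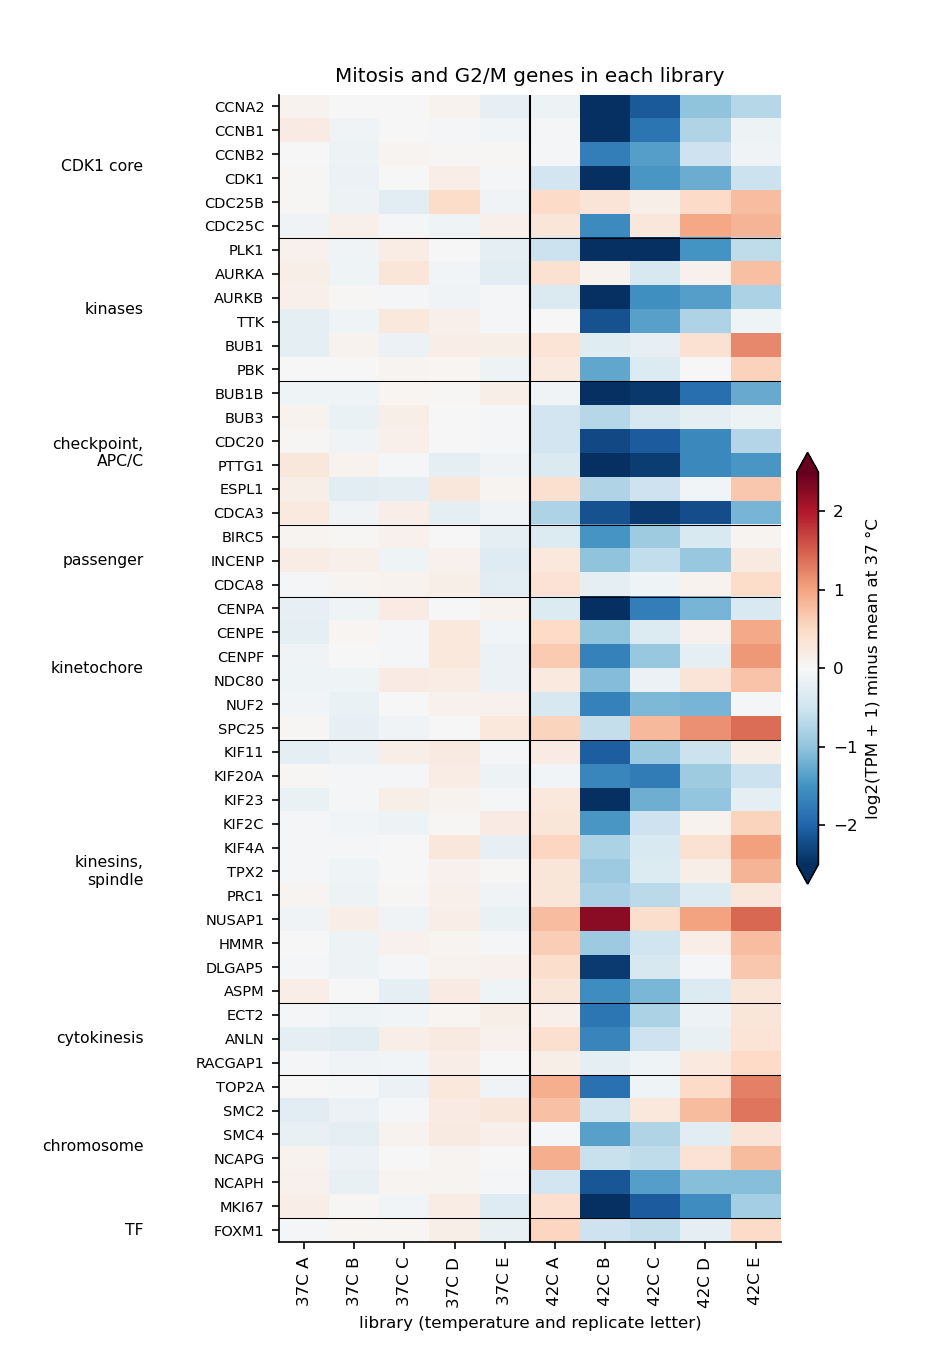
Log2(TPM + 1) of the 48 genes in each of the 10 libraries minus the mean of the 5 thermoneutral libraries, in rows ordered by role and columns by temperature and letter. Blue is lower and red higher than the thermoneutral mean. The thermoneutral columns are pale throughout, 42C B and 42C C hold 44 and 40 genes below every thermoneutral library, and 42C A and 42C E hold 27 and 28 genes above them. These counts were not made over all genes.

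In the 48 genes the HS libraries differed among themselves far more than the thermoneutral ones. The highest HS library was a median of 2.4 times the lowest, with a range of 1.29 to 7.02 over the 48 genes. The 48 genes summed to 1380, 699.2, 1007 and 1497 TPM in 42C A, C, D and E, so that 42C A and E held a sum near or above the thermoneutral range of 1251 to 1382 TPM while 42C C held the lowest. Below every thermoneutral library were 11 genes in 42C A, 40 in 42C C, 27 in 42C D and 14 in 42C E. Above every thermoneutral library were 27, 3, 13 and 28 genes. In 42C B the sum was 541.6 TPM, 44 genes lay below every thermoneutral library and 1, NUSAP1, above. The spread and the counts per library were not computed over all genes, so whether they are particular to the 48 cannot be said.

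42C C was the lowest of the 4 HS libraries for 44 of the 48 genes, and 42C E or 42C A was the highest for 25 and 22. The level in 42C C was below that in 42C D, and that in 42C D below that in 42C E, for 44 of the 48 genes, while this order was found for 17.6% of all genes tested. This was a description chosen after the values were seen. Over 42C C, D and E the highest level was a median of 2.29 times the lowest. When each gene was divided by the geometric mean of the 48 genes in its library this ratio was 1.23, and it was smaller than for the levels in 45 of 48 genes. At 37 °C the same division changed it from 1.29 to 1.28. 42C C, D and E thus differed from each other in the level of the set as a whole more than in the balance between its genes.

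The HS libraries also differed in other readouts. HSPA1A, the heat-inducible HSP70 chaperone, was at 402 to 476 TPM at 37 °C and at 1830, 5409, 4615 and 5614 TPM in 42C A, C, D and E, with 7333 TPM in 42C B. The summed share of the mitochondrial protein-coding genes was 6.02% to 7.02% at 37 °C, 6.04% in 42C A and between 2.82% and 2.88% in 42C C, D and E. 42C A was therefore nearest to the thermoneutral libraries in these readouts, and 12 rather than 7 of the 48 genes were called lower without it (9.13% of all genes). 42C E had an HSPA1A level and mitochondrial share like those of 42C C and the highest sum of the 48 genes. Without 42C C, 3 of the 48 genes were called lower (BUB1B, CDCA3 and PTTG1), a share close to the 6.49% of all genes, and 2 higher (NUSAP1 and SPC25; 14.5% of all genes), and at any size 11 fell and 11 rose (15.5% and 40.8% of all genes). The part that the state of each library had in the differences was not tested.

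**Figure D3:**
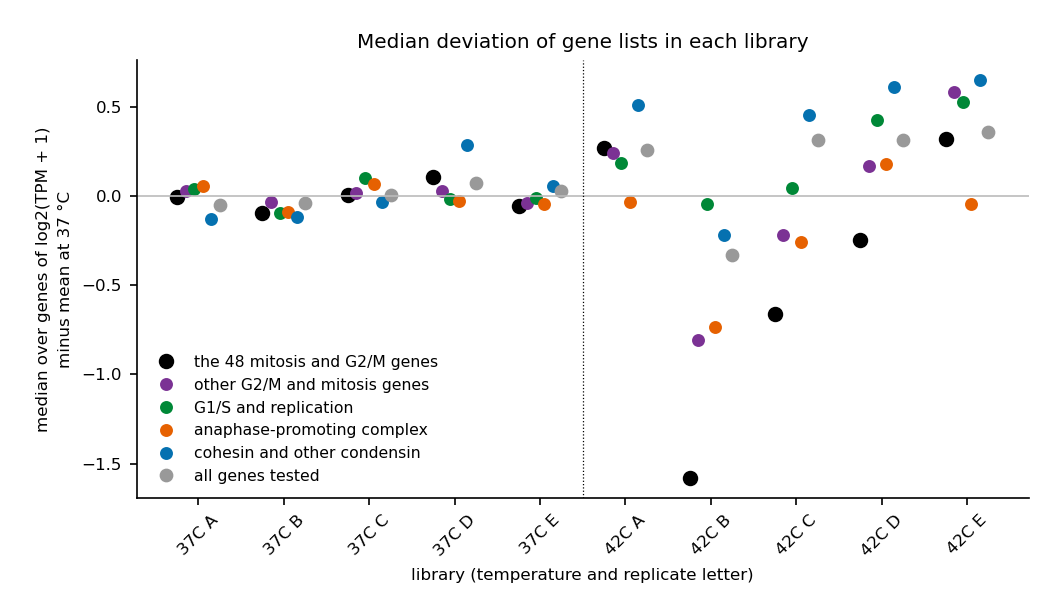
Median over the genes of each list of log2(TPM + 1) minus the mean at 37 °C, for each library, with the 48 mitosis and G2/M genes in black and all genes tested in grey. The 48 genes lay at 0.27, -0.66, -0.25 and 0.32 in 42C A, C, D and E and at -1.58 in 42C B, while all genes tested lay between 0.26 and 0.36 in the former and at -0.33 in the latter.

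With the letters taken as pairs, 14 of the 48 genes were lower at 42 °C in all 4 pairs, 5 in 3, 14 in 2, 9 in 1 and 6 in none. Pairs were not counted over all genes, so whether these counts are particular to the 48 cannot be said. The 14 were CCNA2, CCNB1, CCNB2, CDK1, PLK1, AURKB, BUB3, CDC20, PTTG1, CDCA3, CENPA, NUF2, KIF20A and NCAPH. The 6 that were higher in all 4 pairs were CDC25B, CDC25C, SPC25, NUSAP1, TOP2A and SMC2, which are the 6 that rose. The pairs hold libraries that are also in the fit, so this match is not independent of it. Some counted differences were very small, such as CDC25B in pair D (0.021) and TOP2A in pair C (0.026). Those of CCNB1 in pair E (-0.066) and CCNB2 in pair A (-0.062) were small too. In pair B, which is not among the 4, CDC25C, TOP2A, SPC25 and SMC2 were lower at 42 °C, by differences of -1.73, -1.83, -0.39 and -0.33, while CDC25B and NUSAP1 were higher. With all 10 libraries in the fit at equal weight, NUSAP1 was the only one of the 6 that passed the test. With array weights on those libraries, all of the 6 but TOP2A passed.

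Ratios of partner genes within a library do not depend on how libraries are scaled. The pairs were chosen after the values were seen and have no test. The ratio of AURKB to AURKA in TPM was 0.785 to 1.19 in the 5 thermoneutral libraries and 0.327 to 0.578 in the 4 HS libraries. That of BUB1B to BUB1, both checkpoint proteins, was 0.926 to 1.24 at 37 °C, 0.781 in 42C A and 0.182, 0.189 and 0.173 in 42C C, D and E. That of MKI67 to TOP2A, both markers of cycling cells, was 0.439 to 0.599 at 37 °C, 0.371 in 42C A and 0.109, 0.112 and 0.112 in 42C C, D and E. These 3 ratios were lower in all 4 HS libraries, and the last 2 were nearly equal in 42C C, D and E although the levels of the genes were not.

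The RNA of subunits of one complex also changed in proportion, in pairs likewise chosen after the values were seen. The proportions of the proteins were not measured here. Within condensin, the ratio of SMC4 to SMC2 was 1.34 to 1.68 at 37 °C and 0.701 to 0.862 at 42 °C, and that of NCAPH to NCAPG 0.657 to 0.71 against 0.171 to 0.374. Within the NDC80 complex, that of NUF2 to SPC25 was 1.81 to 2.19 against 0.364 to 1, and that of SPC24 to SPC25 was 5 to 8.98 against 0.363 to 1.64. SPC24, which pairs with SPC25 in that complex and is not among the 48 genes, fell by 2.404 on the log2 scale. The ratio of CDK1 to CDC25C was 3.20 to 4.94 against 0.757 to 2.21. Only KIF23 to RACGAP1, the subunits of centralspindlin, overlapped between the temperatures among the 9 ratios computed, at 0.695 to 0.901 and 0.305 to 0.842. Because the pairs were picked by their values and no others were computed, this count does not show how often such ratios separate.

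**Figure D4:**
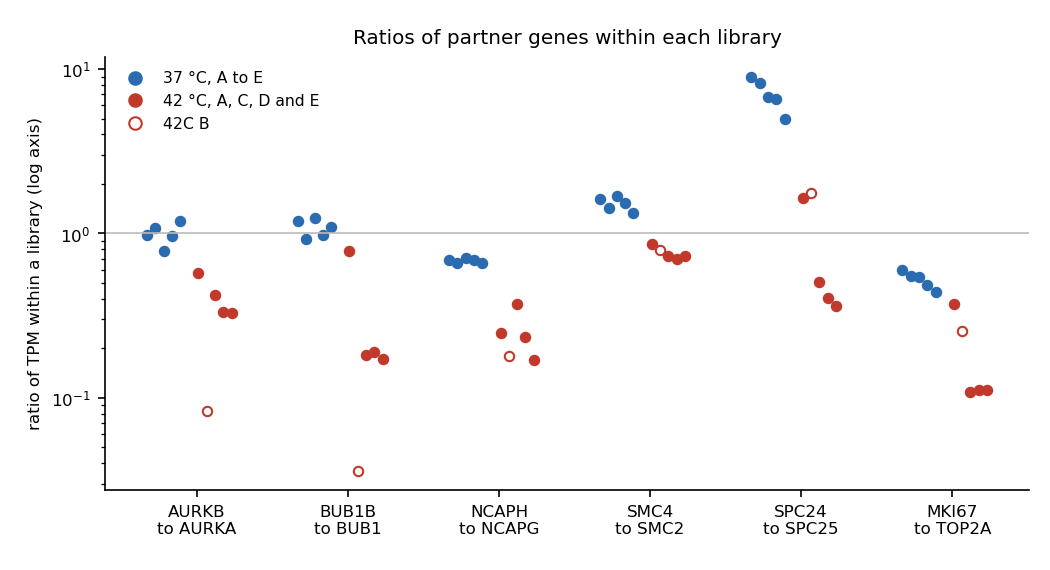
Ratio of the TPM of partner genes within each library (log axis) at 37 °C (blue), in 42C A, C, D and E (filled red) and in 42C B (open red). For each of the 6 pairs drawn, which were chosen after the values were seen, all 4 HS libraries lay below all 5 thermoneutral libraries, for example at 0.327 to 0.578 against 0.785 to 1.19 for AURKB to AURKA.

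The surrounding cell cycle genes were counted from lists that do not overlap the 48. Over all genes tested, 7.14% were called lower and 15.8% higher, which is the background for each list. Of 72 other G2/M and mitosis genes tested, 4 were called lower and 6 higher, with a median difference of 0.23. The falls were SPC24 (-2.404), TACC3 (-2.10), which steadies spindle microtubules, PIMREG (-1.67) and PMF1 (-1.55), a kinetochore subunit. The 4 largest rises were MASTL (1.40), the kinase that shields CDK1 substrates from phosphatase, ERCC6L (1.37), WEE1 (1.26), the kinase that inhibits CDK1, and MIS12 (1.08). WEE1 was at 9.86 to 13.8 TPM at 37 °C and at 24.5, 25.2, 31.4 and 34.3 TPM in 42C A, C, D and E (19.7 in 42C B). Under median-ratio scaling 9 of the 72 were called lower and 2 higher, and in the next lists the counts were 2 and 0 for the APC/C, 0 and 2 for cohesin and condensin, and 2 and 1 for the DREAM, MuvB and E2F genes. With that scaling 11.8% of all genes were called lower and 7.55% higher.

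Of 16 APC/C genes, CDC23 was called lower and none higher, and FZR1 (CDH1), the activator that replaces CDC20 at the end of mitosis, had a difference of 0.15 (adjusted p = 0.269, limma). Of 14 cohesin and remaining condensin genes, 0 were called lower and 4 higher: PDS5B (1.43), WAPL (1.39), which releases cohesin from chromosomes, SMC1A (1.16) and MAU2 (1.13). Among 16 genes of the DREAM and MuvB complexes and the E2F repressors, E2F8 (-1.38) and MYBL2 (-1.36) were called lower and RB1 (1.35) and RBL2 (1.23) higher. MYBL2 (B-MYB), which works with MuvB on the promoters of G2/M genes, was at 48.1 to 77.7 TPM at 37 °C and at 26.3, 18.5, 18.3 and 28.4 TPM in 42C A, C, D and E (12.6 in 42C B).

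Of 51 G1/S and DNA replication genes, 2 were called lower, CDC45 (-2.17), a part of the replicative helicase, and CDCA7 (-1.04), and 1 higher, POLE (1.11). Their median difference was 0.25, near that of all genes. Of 12 G1 cyclins and kinases, 3 were called higher, CDK6 (1.61), CCND1 (1.102), the cyclin that drives entry into the cycle, and CDK7 (1.003). CCND1 was at 91.0 to 140 TPM at 37 °C and at 387, 216, 203 and 262 TPM in 42C A, C, D and E (94.6 in 42C B). Of 19 CDK inhibitors and p53 arrest genes, 1 was called lower, CDKN2D (-1.14), and 4 higher, PLK3 (1.66), CDKN1C (1.58), CDKN1A (1.56) and PLK2 (1.33). CDKN1A (p21), which blocks CDK activity and is induced by p53, was at 121.9, 107.6, 97.8, 99.8 and 105 TPM in 37C A to E and at 191.6, 401, 324 and 398 TPM in 42C A, C, D and E, with 836.5 TPM in 42C B. Of the 5 HS libraries it was lowest in 42C A and highest in 42C B, which held the lowest sum of the 48 genes, and it was about equal in 42C C and 42C E, whose sums were 699.2 and 1497 TPM. Any link between CDKN1A and the levels of the 48 genes was not tested. Under median-ratio scaling, which moved most differences down, the counts called lower and higher were 6 and 0 for the G1/S list, 1 and 1 for the G1 cyclins and kinases, and 2 and 3 for the CDK inhibitors. The shares of all genes were 11.8% and 7.55%.

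The organoids had the markers of an epithelium at both temperatures. All 9 epithelial markers were present, with a summed level of 13600 to 16500 TPM at 37 °C and 8570 to 12700 TPM at 42 °C. Of 27 ciliated cell markers 13 passed the filter and 8 were called lower (background 7.14%), with a sum of 59.8 to 167 TPM at 37 °C and 29.4 to 54.1 TPM at 42 °C. FOXJ1, their defining factor, was present, FOXN4 was at 0 in every library, and CDC20B stayed below 1 TPM. Of 8 secretory markers 6 passed the filter, with a sum of 3450 to 3940 TPM at 37 °C and 2080 to 3520 TPM at 42 °C. Most of that sum was KRT7, which is also on the epithelial list. TFF3 was called lower (-1.48) and SPP1 higher (2.32). The secretory marker OVGP1, the oviduct-specific glycoprotein, was below 1 TPM in every library. Of the markers of other cells, 6 of 8 for fibroblasts, 7 of 8 for leukocytes, 4 of 6 for endothelium and 2 of 4 for smooth muscle were below 1 TPM in every library. The fibroblast list summed to 44.6 to 272 TPM at 37 °C and 14.3 to 17.4 TPM at 42 °C, nearly all of it THY1, and the leukocyte list to 0.60 to 1.45 TPM and 1.82 to 9.46 TPM, most of it CD68, with CSF1R, ITGAM and MS4A1 at 0. The part of these cells in the differences of the 48 genes was not tested.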

How the data were processed

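RNA-seq of 10 libraries of oviductal organoids (5 at 37 °C, 5 at 42 °C) was used. The authors deposited TPM per gene. Reads had been trimmed and mapped to the ARS-UCD1.2 genome with CLC Genomics Workbench. In the submitters' processing notes bcl2fastq, DESeq2 and Bowtie2 2.2.2 are listed too. How these were used is not given in the sources used here, nor is the use of strand in counting. Every TPM column sums to 1e+06, so the values keep no read number and no counting interval was computed. The read totals of the study were not used, and errors are those between replicates.

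A gene was tested if 4 or more of the 9 libraries held 1 TPM or more of it (12149 genes). Values were put on log2(TPM + 1), a scale on which changes of low genes come out too small, and tested with limma 3.58.1 in R 4.3.3 (eBayes with trend, two-sided), with Benjamini-Hochberg adjustment over all of them. The script was tested on simulated data. Since the study set 1 HS replicate aside, 42C B was left out. The study's fold and FDR thresholds were kept.

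The members, lists and named genes were chosen with earlier results of these data known. Values in every library, 42C B included, are given for each called gene, the 6 largest differences in each direction and a fixed set (MKI67, CCNB1, CDK1, PLK1, AURKA, AURKB, TOP2A, FOXM1, CDC25B, CDC25C, BIRC5, BUB3, CDC20 and TPX2). For the other lists, the rule took up to 4 called genes each plus CDKN1A, CCND1, MYBL2 and FZR1. The same oviducts were split between temperatures, and same-letter libraries deviated together (correlations of 0.125, 0.238, 0.369, 0.273 and 0.211 for A to E), so the letters were treated as pairs in an alternative fit. Overlapping genes came from a RefSeq table of another assembly (ARS-UCD2.0), in which all 48 genes matched by symbol and 10 overlapped a protein-coding gene. The planned count of promoter motifs was not run. Alternatives were other pseudocounts, filters, scalings and variance models, all 10 libraries, and leaving out each library.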

Additional observations from a re-analysis of the deposited data

Results flagged for a closer look

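TOP2A was at 39.6 TPM in 37C D, apart from the other 4 thermoneutral libraries, the nearest of which was at 32.1 TPM. Of 42 groups of libraries examined in this way, about 1 in 20 stands apart by chance.

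NUSAP1 was at 86.0 TPM in 42C B, a library that entered no test, against at most 48.6 TPM in the other 9 libraries. No other gene of the 48 was highest in 42C B, and 40 of the 48 were lowest there. CHP1, which overlaps NUSAP1, was at 335 TPM in 42C B.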

How the results depend on the processing

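BUB1B, CDCA3 and PTTG1 were called lower under every alternative run. The count of genes called lower was 7 in the main comparison (7.14% of all genes). It was 14 under median-ratio scaling (11.8% of all genes) and 13 under quantile normalization (10.3%). With all 10 libraries it was 11, and with those and array weights 13 (8.92% of all genes in both). It was 9, 5, 6 and 7 with a pseudocount of 0.1, a pseudocount of 5, no filter and a filter at a mean of 5 TPM. The shares of all genes were 8.64%, 4.01%, 5.03% and 6.9%. When a library was left out it was 3 to 12 (3 without 42C C, 12 without 42C A, 5 without 42C D or 37C A), against 6.41% to 9.13% of all genes. PLK1 and CDC20 lost their call without 42C C, and AURKB without 37C A, 42C C or 42C D or with a pseudocount of 5. MKI67 lost its call with a pseudocount of 5, with no filter, and without any of 37C A, B, C or D or 42C C, D or E. The count called higher (0) was 1 with a pseudocount of 0.1 (SPC25) and with all 10 libraries (NUSAP1), against 19.5% and 13.4% of all genes. It was 0 to 2 when a library was left out (SPC25 without 42C A or 37C E, and SPC25 and NUSAP1 without 42C C), against 14% to 18.8% of all genes. With the replicate block, the paired fit, 8 genes were called lower and 0 higher (7.15% and 15.2% of all genes). NCAPH was added, and no other call among the 48 changed.

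Over all genes, 867 were called lower and 1915 higher. The counts were 487 and 884 with a pseudocount of 5, 1439 and 917 under median-ratio scaling, and 981 higher under quantile normalization, and leaving out a library gave 768 to 1094 lower and 1682 to 2256 higher. The higher share of the calls was 68.8%, 38.9% under median-ratio scaling and 43.9% under quantile normalization. The median difference of the 48 genes (-0.12) was -0.45 under median-ratio scaling and -0.25 to 0.10 when a library was left out.

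Among the 48 genes 13 changed sign under median-ratio scaling and 14 under quantile normalization, none of which passed the test in the main comparison. Of the genes with values in every library these were AURKA, FOXM1 and TPX2: -0.12, -0.26 and -0.10 under median-ratio scaling and -0.10, -0.29 and -0.023 under quantile normalization. FOXM1 was at -0.067 with all 10 libraries and at -0.12 to 0.26 when a library was left out, and AURKA and FOXM1 at -0.062 and -0.27 with array weights. The cause of these changes was not tested. Over the genes with values in every library and all alternatives, 359 differences kept direction and side of the threshold, 15 no longer passed, 14 newly passed and 12 changed sign.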
